A study of Homo sapiens with 18 samples.

Results

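The genes described here make and release the 3' ends of transcripts made by RNA polymerase II. They are 37 genes of the 57500 in the files: 7 subunits of the cleavage and polyadenylation specificity factor CPSF and its scaffold, 3 of cleavage factor Im (CFIm), 4 of the cleavage stimulation factor CstF, 2 of cleavage factor IIm (CFIIm), 2 poly(A) polymerases, 4 genes for termination and the choice of poly(A) site, the histone mRNA factor *SLBP*, and 14 subunits of Integrator. The members were taken from a list of names, drawn up with earlier results of these data known, and matched to gene identifiers. All 37 were found and passed the filter on low counts in every comparison.

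The study used CRISPR interference, in which a catalytically dead Cas9 fused to the KRAB repressor is guided to a promoter, to silence *DNAJC17*, a gene for a J-domain co-chaperone linked to splicing. RNA came from ES8, a Ewing sarcoma line, and from Rh30, an alveolar rhabdomyosarcoma line, in 18 poly(A)-selected libraries. In each line, 3 libraries came from parental cells with the control guide sgCTL, 3 from parental cells with sgDNAJC17, and 3 from cells that stably expressed 3xFLAG-DNAJC17-dRRM (ΔRRM below), a form of the protein without its RNA recognition motif, and also received sgDNAJC17. All cells were in puromycin for 72 hours. All groups carry the dCas9-KRAB system, the ΔRRM cells are a separately selected population, and no ΔRRM library with sgCTL was analysed here, so the ΔRRM allele and the selection of those cells cannot be told apart. The 3 libraries of a group are triplicate cultures of 1 line, and p-values measure the spread between them.

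In mammalian cells CPSF reads the AAUAAA hexamer through *CPSF4* and *WDR33*, and *CPSF3* cuts the transcript. CstF binds the downstream U- or GU-rich element, CFIm binds UGUA upstream and biases the choice between sites, and *CLP1* and *PCF11* of CFIIm link cleavage to termination. After cleavage the exonuclease *XRN2* degrades the RNA still attached to the polymerase. Integrator cuts the 3' ends of small nuclear RNAs and of transcripts from stalled polymerases with *INTS11*, an endonuclease related to *CPSF3*. A shortage of these factors is one known route to read-through transcripts and to extended small RNAs, and the comparison asks whether their mRNAs moved when *DNAJC17* was silenced.

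Library totals ran from 35342393 to 48245989 counts. Values per library are CPM, read counts scaled to a common library size with TMM factors over all 18 libraries, and tests are edgeR quasi-likelihood tests with Benjamini-Hochberg adjustment over all genes tested. A gene passed at an adjusted p under 0.05. *DNAJC17* itself was at 11.2, 12.4 and 12.3 CPM with sgCTL in ES8 and at 1.56, 1.96 and 1.56 CPM with sgDNAJC17. In Rh30 it went from 11.7, 11.9 and 10.8 CPM to 2.52, 2.20 and 2.72 CPM. The ΔRRM libraries had 283.4 to 312.1 CPM in ES8 and 336.2 to 367.7 CPM in Rh30, reads that the transgene can supply. The Ewing sarcoma markers (7 genes) summed to 2178 to 2445 CPM in ES8. In Rh30, where 4 of the 7 had at most 3 counts in any library of a group, they summed to 582.4 to 595.5 CPM with sgCTL, 676.6 to 766.6 CPM with sgDNAJC17 and 431.3 to 471.1 CPM in the ΔRRM libraries. The rhabdomyosarcoma markers (7 genes) summed to 62.98 to 94.7 CPM in ES8, where *MYOG*, *CHRNA1* and *MYMK* were at 0 in the sgCTL and sgDNAJC17 libraries and no marker was at 0 in the ΔRRM libraries. Of the 4 that could be tested, none passed between ΔRRM libraries and controls of ES8 (median log2 difference 0.80), and 1 was higher in ΔRRM than in knockdown libraries. In Rh30 they summed to 3327 to 3445 CPM with sgCTL, 2763 to 3031 CPM with sgDNAJC17 and 2165 to 2421 CPM in the ΔRRM libraries, and the part of these marker shifts in the results was not tested.

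After *DNAJC17* knockdown some members rose and others fell, by small amounts. In ES8, 6 of 37 were higher and 10 lower, beside 13.6% and 13.8% of the 17143 genes tested. In Rh30, 6 were higher and 4 lower, beside 16.1% and 16.2% of 15391 genes. No member reached a 2-fold change in either line. The median log2 fold change of the 37 was -0.04 in ES8 and 0.01 in Rh30, and that of all genes tested was -0.02 and 0.0045. In bulk RNA, fewer cells of a type and less RNA per cell cannot be told apart. The heat map of log2 fold changes gives every member in every comparison within a line.

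**Figure D1:**
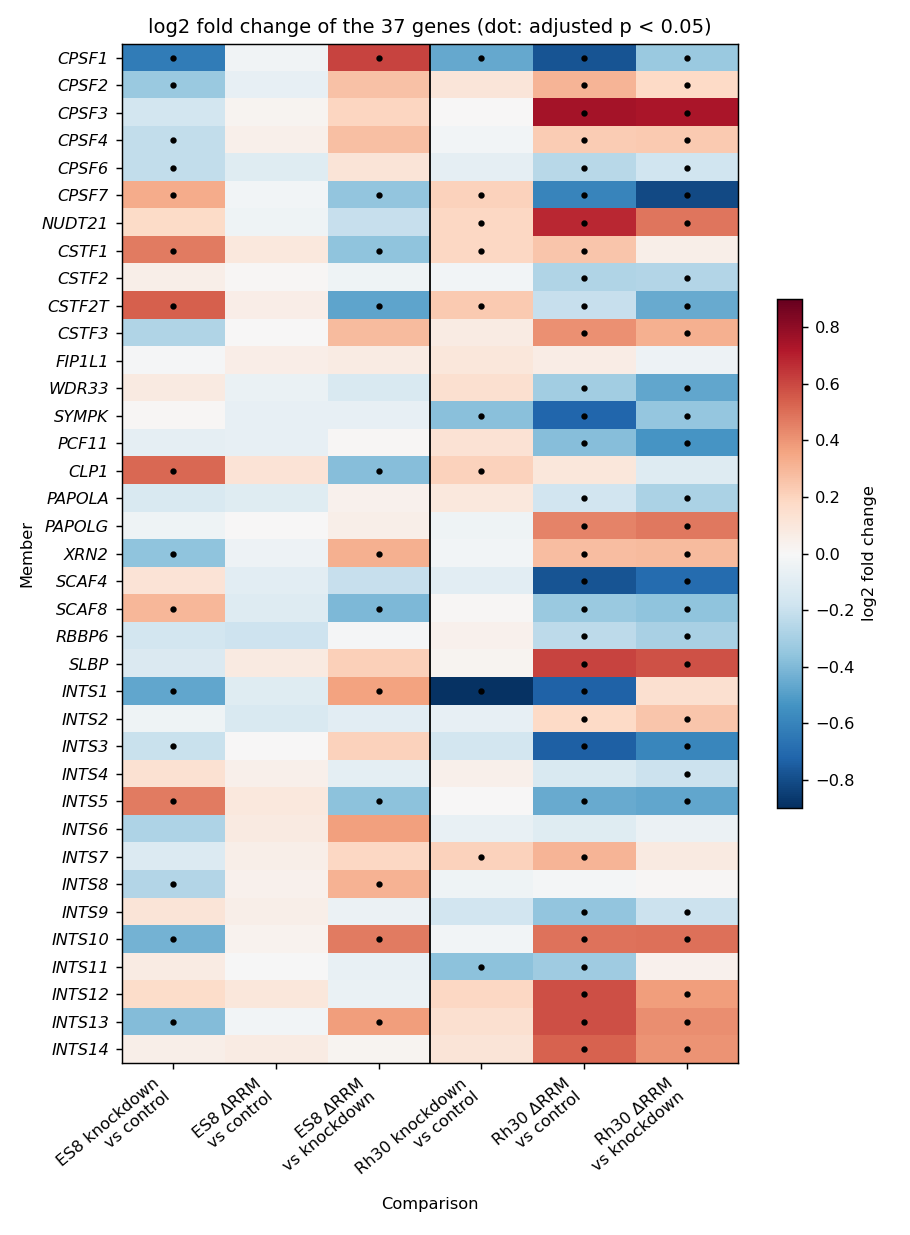
Heat map of the log2 fold change of the 37 genes (rows) in 6 comparisons (columns), ES8 left of the line and Rh30 right of it, with red for higher and blue for lower and a dot where the adjusted p is under 0.05. In ES8 the middle column, ΔRRM against control, has no dot, while in Rh30 the same comparison has 32.

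Both lines shared 6 members that passed in 1 direction, which are 6 of the 16 that passed in ES8 and 6 of the 10 that passed in Rh30. *CPSF7*, *CSTF1*, *CSTF2T* and *CLP1* rose in both lines, and *CPSF1* and *INTS1* fell in both. Among the 13841 genes tested in both lines, 6.17% rose in both and 6.18% fell in both, so 4 and 2 of 37 are near that background. No member passed in opposite directions, but with the replicate block described below *CPSF2* and *INTS13*, which fell in ES8, rose in Rh30. The log2 fold changes of the 37 in ES8 and Rh30, which share no library, had a Pearson correlation of 0.456 and a Spearman correlation of 0.428 across genes, beside 0.367 and 0.349 for all genes tested in both.

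*CPSF1*, the large scaffold subunit of CPSF, on chromosome 8, was at 214.2, 221.7 and 215.6 CPM in ES8 with sgCTL and at 161.7, 133.6 and 133.1 CPM with sgDNAJC17. In Rh30 it went from 132.7, 123.1 and 115.9 CPM to 101.4, 85.9 and 80.5 CPM. The groups did not overlap in either line. It was 1.55-fold lower in ES8 (log2 fold change -0.63 ± 0.08 SE, adjusted p = 0.00066) and 1.37-fold lower in Rh30 (-0.46 ± 0.08 SE, adjusted p = 0.00096). With a correction for GC content and length the Rh30 value was -0.23 (adjusted p = 0.0018).

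*INTS1*, the largest Integrator subunit and part of its backbone (GRCh38 chr7:1470277-1504367, minus strand), was at 320.7, 341.2 and 318 CPM in ES8 with sgCTL and at 274.4, 222.1 and 223.8 CPM with sgDNAJC17. Rh30 had 112.1, 101.3 and 99.6 CPM with sgCTL and 69.2, 52.6 and 45.8 CPM with sgDNAJC17. Again every knockdown library was below every control library of its line. The fold was 1.38 in ES8 (-0.47 ± 0.08 SE, adjusted p = 0.0033) and 1.85 in Rh30 (-0.89 ± 0.11 SE, adjusted p = 9.5e-05), or -0.57 in Rh30 with the correction for GC content and length, and the difference between the lines did not pass (-0.40 ± 0.15 SE, adjusted p = 0.109).

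*CLP1*, an RNA kinase of CFIIm (chr11:57648992-57661868, plus strand), was at 20.9, 19.9 and 20.3 CPM in ES8 with sgCTL and at 31.5, 28.2 and 29.2 CPM with sgDNAJC17. In Rh30 the values were 40.97, 40.9 and 42.7 CPM and then 47.7, 44.8 and 49.8 CPM. It rose in ES8 (0.52 ± 0.08 SE, adjusted p = 0.0013) and in Rh30 (0.21 ± 0.07 SE, adjusted p = 0.027). Of its exonic bases, 9.6% lie opposite exons of *YPEL4*, and the strand setting of the counting is not given in the sources used here, so reads of the pair cannot be told apart. The Rh30 call was lost without sgCTL library A (0.20), B (0.20) or C (0.22) or sgDNAJC17 library C (0.16), with adjusted p-values of 0.093, 0.101, 0.059 and 0.085.

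*CSTF1*, a subunit of CstF (chr20:56392371-56406369, plus strand), was at 47.0, 42.7 and 43.1 CPM in ES8 with sgCTL and at 63.9, 61.0 and 61.9 CPM with sgDNAJC17, a rise of 0.47 ± 0.06 SE on the log2 scale (adjusted p = 0.00097). In Rh30 it went from 72.9, 78.2 and 75.5 CPM to 83.6, 87.9 and 83.3 CPM (0.18 ± 0.06 SE, adjusted p = 0.032). *CPSF7*, 1 of the 2 large CFIm subunits (chr11:61402641-61430031, minus strand), was at 143.2, 144 and 142.2 CPM and then 188.1, 181.4 and 181.5 CPM in ES8 (0.34 ± 0.05 SE, adjusted p = 0.0015). Its Rh30 values were 104.3, 97.0 and 97.1 CPM and then 122.4, 112.1 and 106.2 CPM (0.21 ± 0.07 SE, adjusted p = 0.026). The control and knockdown libraries of both genes did not overlap in either line. The Rh30 call of *CSTF1* was lost without sgCTL library A, B or C (0.16, 0.21 and 0.18) or sgDNAJC17 library B (0.16), and that of *CPSF7* without sgCTL library B or C (0.19 for both) or sgDNAJC17 library B (0.21). With all libraries in 1 fit and with library size scaling the Rh30 calls of *CLP1*, *CSTF1* and *CPSF7* were lost (0.12 to 0.19), and those of *CLP1* and *CSTF1* also without a filter (0.19 and 0.17).

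*CSTF2T* is an intronless paralogue of *CSTF2*, the RNA-binding subunit of CstF (chr10:51695487-51699591, minus strand). In ES8 it was at 44.7, 44.1 and 45.8 CPM with sgCTL and at 65.2, 66.4 and 66.5 CPM with sgDNAJC17, the largest rise among the members in that line (0.53 ± 0.06 SE, adjusted p = 0.00036). In Rh30 it went from 64.9, 62.8 and 63.1 CPM to 74.4, 75.4 and 72.3 CPM (0.23 ± 0.06 SE, adjusted p = 0.0082), a call lost without sgDNAJC17 library B (0.22, adjusted p = 0.050). *CSTF2*, on chromosome X, did not pass, with 0.05 ± 0.07 SE in ES8 (adjusted p = 0.63) and -0.02 ± 0.06 SE in Rh30 (adjusted p = 0.823). Per base of exon, *CSTF2T* was at 0.56 ± 0.0088 (SD, n = 3) of the *CSTF2* level in ES8 controls and at 0.79 ± 0.052 after knockdown, and the Rh30 ratios were 0.47 ± 0.018 and 0.56 ± 0.023. The longest exact run that the *CSTF2T* transcript shares with any of 4 *CSTF2* transcripts is 41 bases, and none of its 4061 windows of 50 bases occurs in them.

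**Figure D2:**
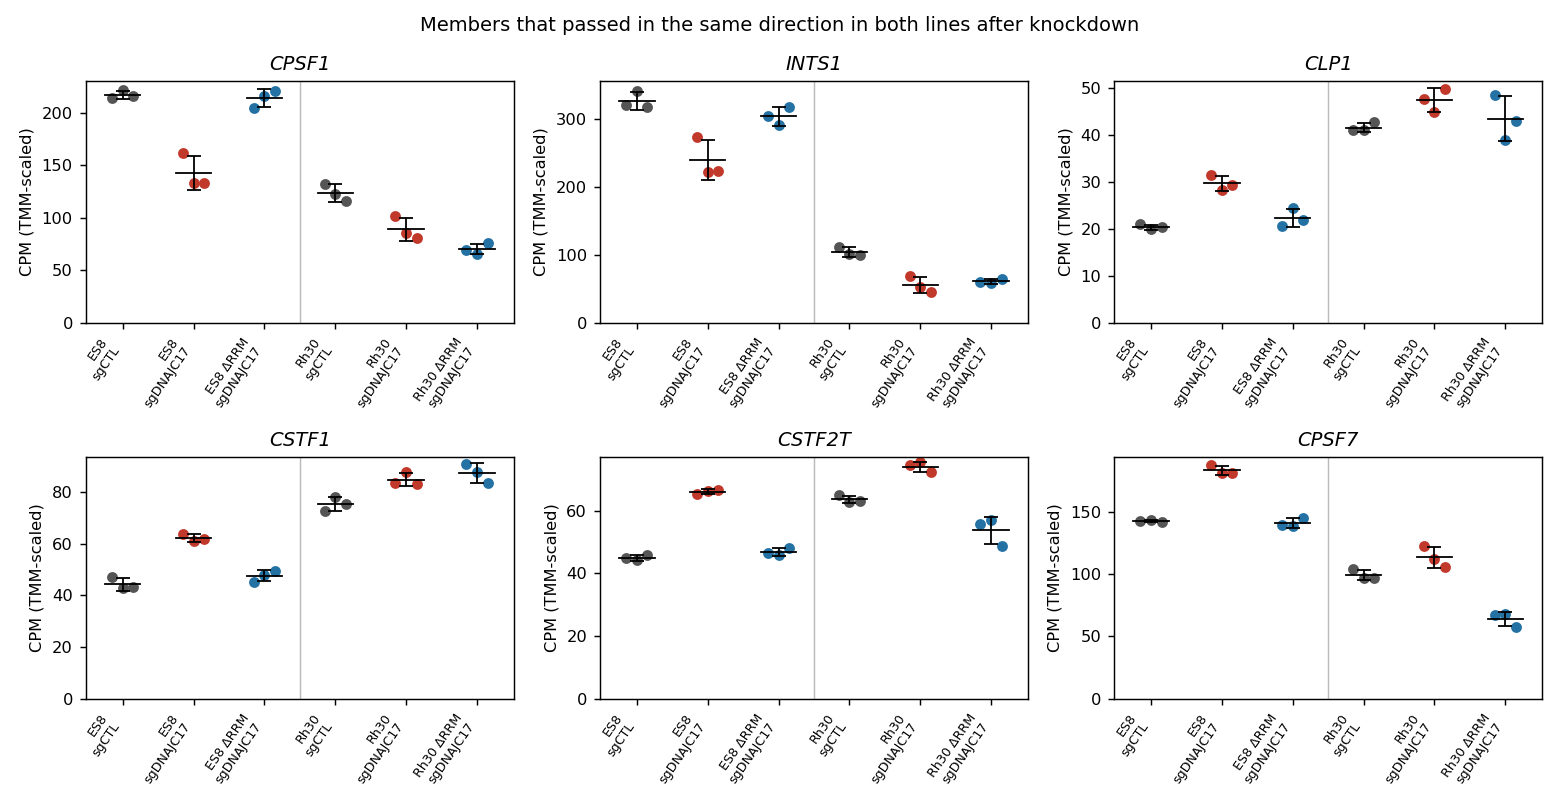
TMM-scaled CPM (vertical axes, from 0) of the 6 genes that passed in the same direction in both lines, for the 6 groups (horizontal axes), with a point for each library and the mean ± SD of 3 libraries. *CPSF1* and *INTS1* are lower in the sgDNAJC17 libraries than in the sgCTL libraries of both lines, the other 4 are higher, and in ES8 the ΔRRM libraries lie near the controls.

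Promoter sequence is shown for genes that rose or fell in both lines. RefSeq promoter windows (GRCh38.p14, from 250 bases before to 50 after a start) were found for 31 of the 37 members, among them 5 of these 6 (not *CPSF1*). The ETS core CCGGAAG, searched on both strands, was in the windows of 11 of the 31, or 35.5%, and in those of 12.2% of 27305 genes. It stood in windows of *CPSF7* and *CSTF1*, which rose, and of *INTS1*, which fell, and not in those of *CSTF2T* or *CLP1*. The windows hold 3 such sites in *CPSF7* and 2 in *INTS1*. For each gene the site nearest to a start on the gene's own strand is given, as 30 bases with the motif in capitals, for chr11:61430010-61430039 (minus strand), chr20:56392366-56392395 (plus strand) and chr7:1504397-1504426 (minus strand).
CPSF7: ccctgcgcatgCCGGAAGtggcggtgcgtg
CSTF1: tccctaagaacCCGGAAGtggtggagccaa
INTS1: ttccggttgttCCGGAAGtcgggtcctcga
The GC box GGGCGG was in the windows of 23 of 31 members and 48.3% of genes, CCAAT in 15 members and 39.7% of genes, and TATAAA in 0 members and 14% of genes, with each motif searched on both strands. A match describes these letters only, and the sites above lie in genes that moved in different directions. The shares of genes are over all 27305 with a window, expressed or not, while all members passed the filter on low counts.

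The members that rose in both lines have fewer exons than the pair that fell in both. The canonical transcripts of *CSTF2T*, *CLP1*, *CSTF1* and *CPSF7* have 1, 3, 6 and 10 exons, while *CPSF1* has 38, with a median intron of 85 bases, and *INTS1* has 48. *INTS5*, with 2 exons, rose in ES8 and did not pass in Rh30 (0.0064, adjusted p = 0.954). *CPSF4*, with 8 exons, and *CPSF6*, with 10, fell in ES8 (-0.22 for both) and did not pass in Rh30. Over the 37 members the Spearman correlation of exon number with the log2 fold change was -0.51 in ES8 and -0.55 in Rh30, and over all protein-coding genes it was -0.37 (n = 13839) and -0.35 (n = 12466). The points of a correlation share the same 6 libraries.

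All protein-coding genes showed a gradient with exon number after knockdown, and it was not particular to the knockdown. Between ΔRRM libraries and controls, which share the sgCTL libraries, the correlation over all protein-coding genes was -0.25 in ES8 and -0.27 in Rh30. Over the 37 members it was -0.49 and -0.30. The ES8 medians in that comparison lay between 0.05 for 2 to 5 exons and -0.15 for at least 31. In ES8 the median log2 fold change after knockdown was 0.28 for the 319 genes with 1 exon, 0.08 for 2 to 5, 0.03 for 6 to 10, -0.08 for 11 to 20, -0.22 for 21 to 30 and -0.35 for the 642 genes with at least 31. The Rh30 medians ran between 0.13 for 1 exon and -0.29 for at least 31. In the highest class, the median of the pair *CPSF1* and *INTS1* was -0.55 in ES8 and -0.67 in Rh30. In the 11 to 20 class, which holds 15 members, the members' median was -0.08 in ES8 and 0.01 in Rh30. In the 21 to 30 class, with 10 members, it was -0.09 in ES8 and -0.03 in Rh30, beside -0.22 and -0.18 for all genes of that class. GC content moved with the fold change in Rh30: the medians by transcript GC went from 0.13 at up to 40% to -0.22 above 60%, and *CPSF1* (62.2% GC), *INTS1* (65.2%) and *INTS11* (63.3%) are the 3 members above 60%. In ES8 the medians by GC lay between -0.08 and 0.02. The part of exon number, GC content and length in these changes was not tested beyond a correction for GC content and length. Under that correction *CPSF7*, *CSTF2T* and *WDR33* rose in both lines and *CPSF1*, *XRN2* and *INTS1* fell in both, while *CLP1* (0.13) and *CSTF1* (0.11) no longer passed in Rh30, and *CSTF2T* was at 0.15 there.

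**Figure D3:**
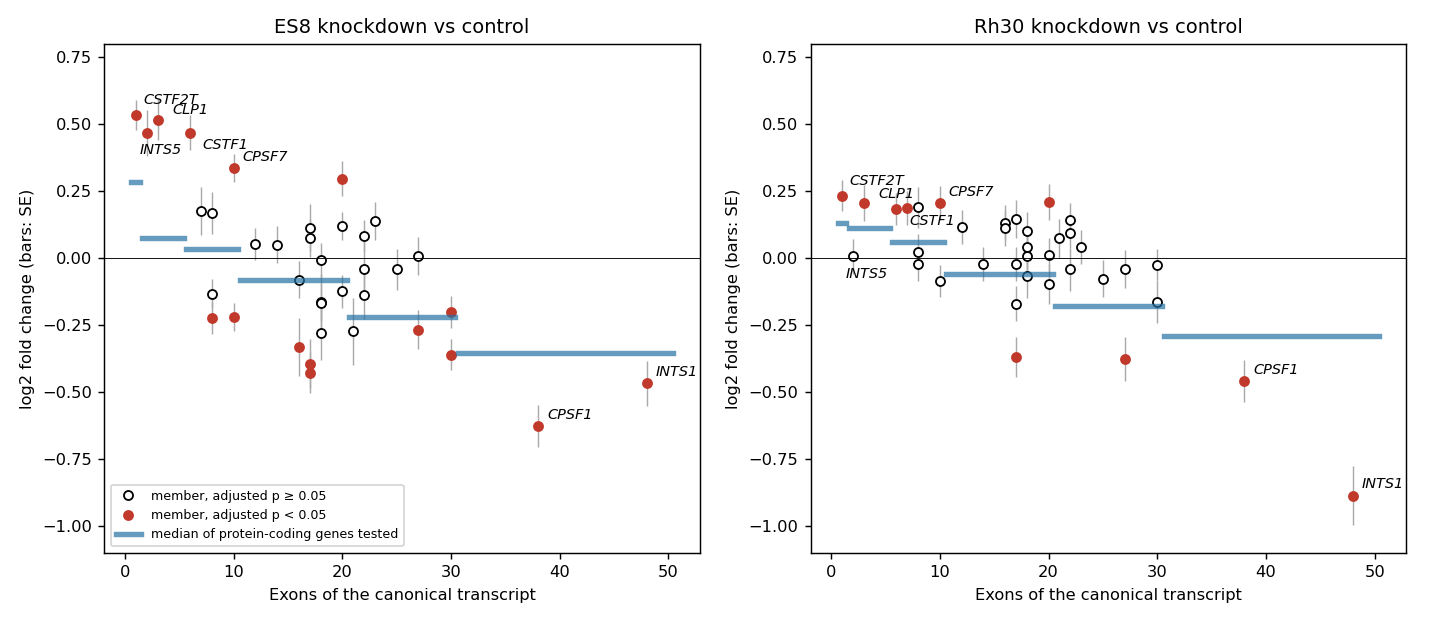
log2 fold change after knockdown (vertical axis, bars are SE) of the 37 genes against the exons of their canonical transcript (horizontal axis), in ES8 (left) and Rh30 (right). Filled points passed the test and blue lines are medians of all protein-coding genes tested in each class of exon number, which fall from 0.28 to -0.35 in ES8 and, in Rh30, from 0.13 to -0.29.

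Within CPSF and its scaffold, 3 of 7 fell in ES8, beside 13.8% of all genes, and 2 of 7 in Rh30, beside 16.2%, and none rose. Beside *CPSF1*, these were *CPSF2*, the non-catalytic partner of the nuclease (-0.33 ± 0.11 SE in ES8, adjusted p = 0.045), *CPSF4*, which binds the hexamer (-0.22 ± 0.06 SE in ES8, adjusted p = 0.021), and *SYMPK*, the scaffold symplekin (-0.38 ± 0.08 SE in Rh30, adjusted p = 0.0036). The ES8 value of *CPSF2* was -0.14 with the correction for GC content and length, and its call was lost without sgCTL library A, B or C (-0.31, -0.38 and -0.32) and with that correction and the block (-0.14), and that of *CPSF4* without any 1 of these (-0.25, -0.20 and -0.22) or sgDNAJC17 library B or C (-0.21 and -0.19). The *SYMPK* call was lost with the correction for GC content and length (-0.12). The nuclease *CPSF3* did not pass in either line, with 87.4, 79.8 and 85.3 CPM in ES8 controls and 69.8, 77.9 and 81.3 CPM after knockdown, and 71.5, 74.3 and 79.0 CPM against 68.8, 73.8 and 80.7 CPM in Rh30. Its groups overlapped in both lines. *WDR33* and *FIP1L1* did not pass. They share 25.6% and 27.7% of their exonic bases with opposite-strand genes, *SFT2D3* and *LNX1*.

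In CFIm, *NUDT21*, the subunit that binds UGUA, rose in Rh30 (0.19 ± 0.06 SE, adjusted p = 0.036) and did not pass in ES8 (0.17 ± 0.09 SE, adjusted p = 0.178). Its Rh30 call was lost when any 1 library other than sgDNAJC17 A was left out (0.15 to 0.20), without a filter (0.17), in 1 fit over all libraries (0.17), with the correction for GC content and length (0.078) and with library size scaling (0.13). *CPSF6*, the other large CFIm subunit, fell in ES8 (-0.22 ± 0.05 SE, adjusted p = 0.012), a call lost without sgCTL library A or C (-0.22 for both) and after correcting for GC content and length (-0.080, or -0.086 with the block). The ratio of *CPSF7* to *CPSF6*, which can replace each other in the complex, went from 0.91 ± 0.022 (SD, n = 3) in ES8 controls to 1.34 ± 0.068 after knockdown, per base of exon. In Rh30 it was 1.10 ± 0.049 in controls and 1.34 ± 0.058 after knockdown. The groups did not overlap in this ratio in either line, and it ran from 0.90 to 0.94 in ES8 controls and from 1.30 to 1.42 after knockdown. *PCF11*, *PAPOLA*, *PAPOLG* and *CSTF3* did not pass in either line.

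Among the termination genes, *XRN2* fell in ES8, from 159.2, 160.2 and 156.9 CPM to 117.6, 129.3 and 130 CPM (-0.36 ± 0.06 SE, adjusted p = 0.0021). In Rh30 it was at 365.4, 364.1 and 374.9 CPM and then 351.7, 352.7 and 370.2 CPM, groups that overlapped (-0.02 ± 0.06 SE, adjusted p = 0.792). *SCAF8*, which binds the polymerase tail and, with *SCAF4*, prevents early termination, rose in ES8 (0.30 ± 0.06 SE, adjusted p = 0.0085), or 0.28 without sgCTL library C (adjusted p = 0.057), and 13% of its exonic bases are shared with *TIAM2* on its strand. *SCAF4* and *RBBP6* did not pass. *SLBP*, which binds the stem-loop at the end of replication-dependent histone mRNAs, was at 99.0, 100.1 and 99.7 CPM in ES8 controls and at 90.2, 91.8 and 95.1 CPM after knockdown. This fall of 0.13 on the log2 scale did not pass (adjusted p = 0.095), and in Rh30 *SLBP* differed by 0.02 ± 0.07 SE (adjusted p = 0.819).

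Of the 14 Integrator subunits, 1 rose and 5 fell in ES8, beside 13.6% and 13.8% of all genes. In Rh30 1 rose and 2 fell, which is near the 16.1% and 16.2% of all genes. *INTS10* and *INTS13*, which belong to a module with *INTS14*, fell in ES8 (-0.43 ± 0.08 SE, adjusted p = 0.0035, and -0.39 ± 0.09 SE, adjusted p = 0.011), as did *INTS8* of the phosphatase module (-0.27 ± 0.07 SE, adjusted p = 0.021) and *INTS3* (-0.20 ± 0.06 SE, adjusted p = 0.031). The *INTS8* call was lost without sgCTL library A or C (-0.27 and -0.23) and after correcting for GC content and length (-0.13, with or without the block). The *INTS3* call was lost without any 1 library other than sgDNAJC17 A (-0.21 to -0.17), with the block and in 1 fit over all libraries. Of the exonic bases of *INTS8*, 20.7% lie opposite exons of *CCNE2*. For *INTS3*, 15.1% lie opposite exons of other genes and 4.4% are shared with *SLC27A3* on its strand. *INTS5*, a structural subunit, rose in ES8 from 47.6, 45.02 and 45.7 CPM to 73.8, 60.9 and 60.05 CPM (0.47 ± 0.09 SE, adjusted p = 0.0036). *INTS11*, the endonuclease, was at 132, 139 and 131.8 CPM in ES8 controls and 158.3, 135.7 and 136.9 CPM after knockdown, groups that overlapped (0.07 ± 0.07 SE, adjusted p = 0.479). In Rh30 it fell from 95.8, 87.8 and 88.1 CPM to 74.7, 72.4 and 61.0 CPM (-0.37 ± 0.08 SE, adjusted p = 0.0024), a call that was lost with the correction for GC content and length (-0.07). *INTS9*, its catalytic-module partner, did not pass in either line, and neither did *INTS4*, *INTS6*, *INTS2*, *INTS12* or *INTS14*. *INTS7* rose in Rh30 (0.21 ± 0.07 SE, adjusted p = 0.028), a call lost without sgCTL library A or B (0.18 and 0.20) or sgDNAJC17 library B or C (0.20 and 0.17) or with library size scaling (0.15).

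The Rh30 counts depended on how replicates and depth were treated. Replicates of the same letter varied together in this comparison, and with the letter as a block 13 members rose and 6 fell, beside 23.5% of all genes in each direction. The block added *CPSF2*, *WDR33*, *PCF11*, *PAPOLA*, *INTS12*, *INTS13* and *INTS14* to those that rose and *INTS3* and *INTS9* to those that fell. With library size in place of TMM, 1 member rose and 5 fell in Rh30, and 6 rose and 11 fell in ES8. Epithelial marker genes (11 genes) summed to 1.20 to 1.62 CPM in Rh30 with sgCTL, where 7 had at most 3 counts in any library and *CLDN7* and *RAB25* were at 0. They summed to 13.4 to 19.2 CPM with sgDNAJC17 and 14.4 to 16.7 CPM in the ΔRRM libraries of Rh30, and to 34.3 to 44.6 CPM in ES8. Their part in the Rh30 results was not tested.

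The response to knockdown differed between the lines for 7 of the 37 members by the interaction of line and guide, beside 9.78% of 18899 genes tested. *DNAJC17* itself passed this test (0.68 ± 0.18 SE, adjusted p = 0.020), being 7.17-fold lower in ES8 and 4.57-fold lower in Rh30. Depth of knockdown and line therefore cannot be told apart here. *XRN2*, *INTS10*, *INTS13* and *CPSF2* fell in ES8 and did not pass in Rh30, and *INTS5* rose in ES8 and did not pass in Rh30. *INTS7* rose and *INTS11* fell in Rh30, and neither passed in ES8. For *INTS13* the ES8 values were 70.0, 70.7 and 70.8 CPM with sgCTL and 46.1, 59.5 and 58.0 CPM with sgDNAJC17, and the Rh30 values were 110.4, 117 and 118.2 CPM and 116.2, 126.1 and 136 CPM. For *INTS10* they were 44.7, 41.2 and 45.1 CPM against 30.2, 34.9 and 33.8 CPM in ES8, and 60.5, 61.7 and 63.3 CPM against 57.9, 61.9 and 61.1 CPM in Rh30. Control and knockdown libraries of both genes were apart in ES8 and overlapped in Rh30. *CPSF2* was at 52.0, 46.8 and 51.1 CPM and then 32.9, 43.8 and 44.3 CPM in ES8, with its lowest value in sgDNAJC17 library A.

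**Figure D4:**
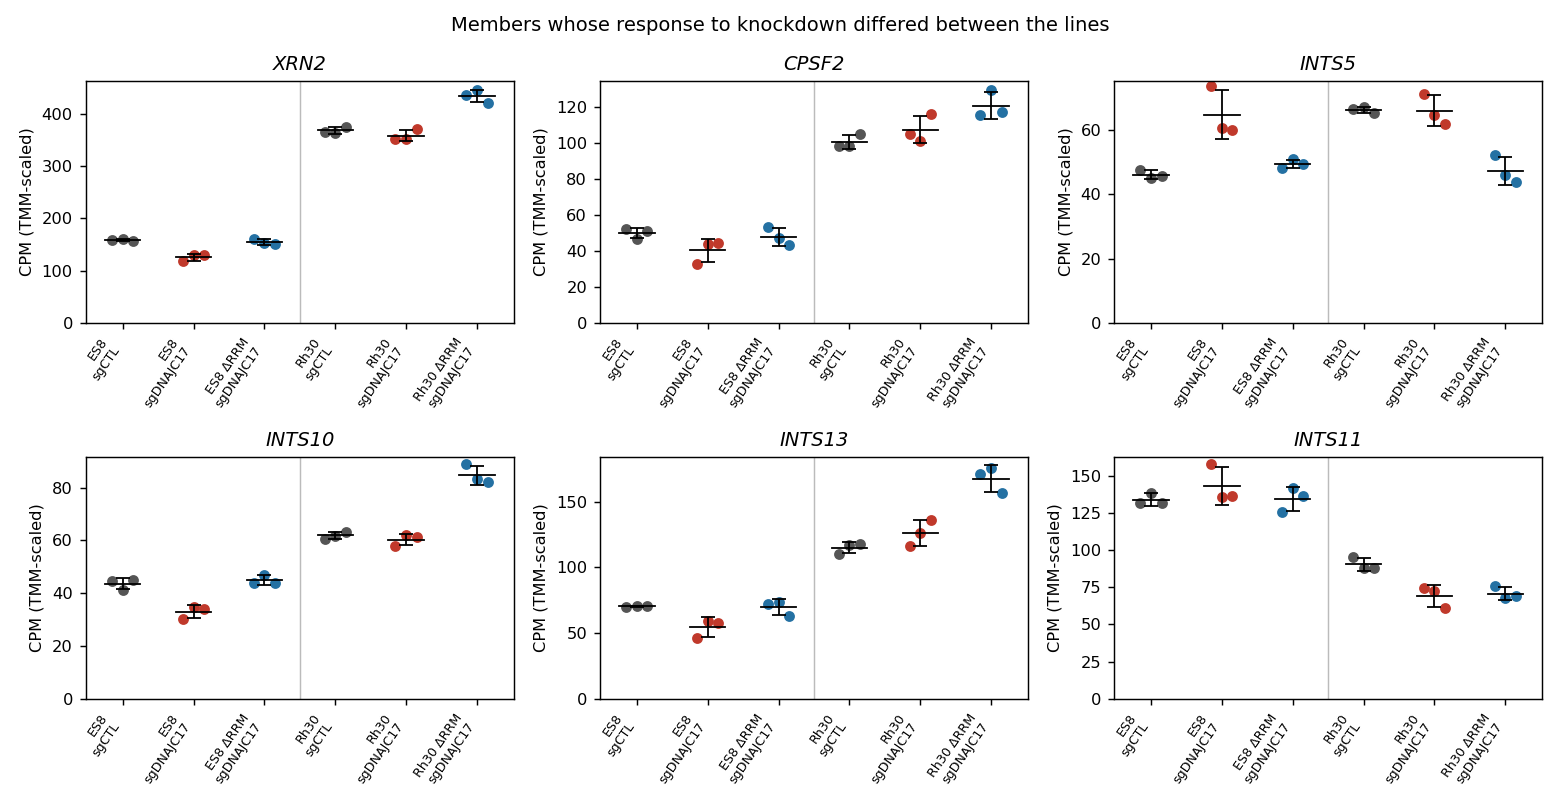
TMM-scaled CPM (vertical axes, from 0) of 6 of the 7 genes whose response to knockdown differed between the lines, for the 6 groups (horizontal axes), with a point for each library and the mean ± SD of 3 libraries. In parental ES8 cells *XRN2* is at 117.6 to 130 CPM with sgDNAJC17, below its controls. In parental Rh30 cells its libraries with either guide lie between 351.7 and 374.9 CPM. The ΔRRM libraries have a mean of 154.7 CPM in ES8 and 434 CPM in Rh30.

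In ES8 no member passed between the ΔRRM libraries and the controls. By edgeR 0 of 37 passed, with 0 at an unadjusted p under 0.05 and 0 by DESeq2, beside 0.093% of 17199 genes higher and 0.0814% lower. The log2 differences of the members ran from -0.18 to 0.13, with a median of 0.0031. *RBBP6*, a ubiquitin ligase that binds the cleavage complex, was lowest at -0.18 ± 0.09 SE, and *INTS1* at -0.11 ± 0.06 SE and *CPSF6* at -0.11 ± 0.06 SE were the next by p. *CPSF1* was at 204.4, 216.1 and 221.1 CPM in these libraries and *CSTF2T* at 46.6, 45.8 and 48.1 CPM. The first span overlapped that of the controls, and the second began just above the highest control.

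Against the ES8 knockdown libraries, the ΔRRM libraries had 6 members higher and 6 lower, beside 7.35% and 7.36% of 17099 genes. This comparison and the knockdown comparison share the sgDNAJC17 libraries, so calls in opposite directions are not independent. *CPSF1* was higher by 0.61 ± 0.10 SE (adjusted p = 0.0027), *INTS10* by 0.47 ± 0.10 SE (adjusted p = 0.0090), and *XRN2*, *INTS1*, *INTS8* and *INTS13* by 0.31 to 0.38. *CSTF2T* was lower, with a log2 difference of -0.47 ± 0.09 SE (adjusted p = 0.0048), and *CPSF7*, *CSTF1*, *CLP1*, *SCAF8* and *INTS5* were lower at -0.41 to -0.36. Calls here were fewer without ES8 sgDNAJC17 library B (2 higher and 1 lower), without library C of that group (2 and 2), and without ES8 ΔRRM libraries A (2 and 2) or C (2 and 1).

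In Rh30 the ΔRRM libraries differed from the controls in most members: 15 were higher and 17 lower, beside 33.8% and 35% of 15442 genes. The 5 that did not pass were *FIP1L1*, *CLP1*, *INTS4*, *INTS6* and *INTS8*. Among the members that passed were *CPSF1*, lower at 69.4, 65.9 and 75.8 CPM (-0.78 ± 0.07 SE, adjusted p = 2.2e-16), *SCAF4*, lower at 38.4, 42.3 and 38.2 CPM (-0.77 ± 0.07 SE, adjusted p = 1.1e-15), and *CPSF3*, higher at 123.6, 122.9 and 122 CPM (0.75 ± 0.06 SE, adjusted p = 1.5e-16). In *CPSF3* these libraries were above all 6 other Rh30 libraries, of which the highest had 80.7 CPM. *SCAF4* had 66.3 to 75.9 CPM in the controls. Over the alternatives *CPSF1* ran from -1.02 to -0.28, *SCAF4* from -1.01 to -0.59 and *CPSF3* from 0.52 to 0.79.

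Also past 1.5-fold against the Rh30 controls were *NUDT21*, higher at 255 to 266.9 CPM (0.68 ± 0.06 SE), *SLBP*, higher at 148.7 to 157.2 CPM (0.61 ± 0.06 SE), *INTS3*, lower at 27.1 to 28.6 CPM (-0.73 ± 0.07 SE), *INTS1*, lower at 58.2 to 65.1 CPM (-0.73 ± 0.06 SE), *SYMPK*, lower at 65.0 to 70.1 CPM (-0.71 ± 0.07 SE), and *CPSF7*, lower at 57.8 to 68.0 CPM (-0.59 ± 0.06 SE). Both Rh30 comparisons with controls share the sgCTL libraries. *CPSF7*, at 106.2 to 122.4 CPM with sgDNAJC17 in parental cells, was above those controls there and below them in ΔRRM cells.

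With library size in place of TMM, 9 members were higher and 20 lower in Rh30 ΔRRM libraries than in controls, and the median log2 difference of all genes moved from -0.01 to -0.25. Under it *CPSF4*, which was higher by 0.23 ± 0.06 SE, was at -0.01. The TMM factors of these libraries were 0.819 to 0.853, and those of the Rh30 controls 0.945 to 0.974. The median difference by GC content went from 0.37 at up to 40% GC to -0.49 above 60%, and under the correction for GC content and length, 25 of the 32 passed in the same direction. *INTS1* then did not pass (-0.0080), *SYMPK* was at -0.12, *INTS3* at -0.33, *NUDT21* at 0.44, *XRN2* went from 0.27 to -0.02, and *INTS11* changed direction, from -0.32 to 0.33 (adjusted p = 1.3e-06). The part of GC content and of the composition of these libraries was not tested further.

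Against the Rh30 knockdown libraries, which the knockdown comparison shares, the ΔRRM libraries had 13 members higher and 16 lower, beside 29.4% and 30.5% of 15309 genes. *CPSF7* was lower (-0.81 ± 0.08 SE, adjusted p = 6.0e-15), *CPSF3* higher (0.73 ± 0.08 SE, adjusted p = 2.8e-13) and *SCAF4* lower (-0.69 ± 0.08 SE, adjusted p = 1.2e-11). *CSTF2T*, at 55.6, 56.9 and 48.8 CPM, was lower than both other Rh30 groups, though against controls not without ΔRRM library C. *INTS1* did not pass in this comparison (0.14 ± 0.09 SE, adjusted p = 0.149), while *CPSF1* was lower still (-0.33 ± 0.08 SE, adjusted p = 0.00026), a call that was lost with the correction for GC content and length. With library size scaling 8 were higher and 18 lower.

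Between the lines at baseline, 17 members were higher in Rh30 and 19 lower, beside 42% and 45.5% of 17925 genes, and *SLBP* alone did not pass. Differences of at least 2-fold were found in 5 members. *INTS3* was 3.34-fold lower in Rh30 (46.4 to 50.5 CPM against 155.6 to 158.5 CPM, adjusted p = 1.0e-30), *INTS1* 3.19-fold lower (adjusted p = 3.7e-30) and *CPSF4* 2.62-fold lower (adjusted p = 1.3e-27). *XRN2* was 2.28-fold higher and *CLP1* 2.00-fold higher. Of these, *INTS1* was under 2-fold with the correction for GC content and length (log2 difference -0.91), *XRN2* with library size scaling (0.97), and *CLP1* under several alternatives (lowest 0.79). Each tumour type is represented by 1 line, and line and any difference in handling cannot be told apart.

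Levels between genes were compared per kb of exon, in controls only. In ES8, *SLBP* was highest at 49.2 ± 0.26 CPM per kb (SD, n = 3), then *CPSF4* at 47.2 ± 1.5, *XRN2* at 46.2 ± 0.50, *INTS1* at 36.0 ± 1.4 and *CPSF1* at 35.8 ± 0.66 CPM per kb. *CPSF4* and *XRN2*, and *INTS1* and *CPSF1*, did not differ beyond their SD. The lowest were *INTS6* at 1.12 ± 0.11, *PAPOLG* at 2.23 ± 0.13 and *CPSF2* at 3.67 ± 0.21 CPM per kb. Their exons span 25509, 8501 and 13595 bases in the files, beside 2026 for *SLBP* and 3437 for *XRN2*. The order therefore depends in part on the annotated length. In Rh30 *XRN2* led at 107.1 ± 1.7 CPM per kb, followed by *SLBP* at 50.4 ± 2.2 and *INTS13* at 34.4 ± 1.2. Of the 36 pairs of neighbours in the order, 16 in ES8 and 23 in Rh30 lay within their summed SD.

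**Figure D5:**
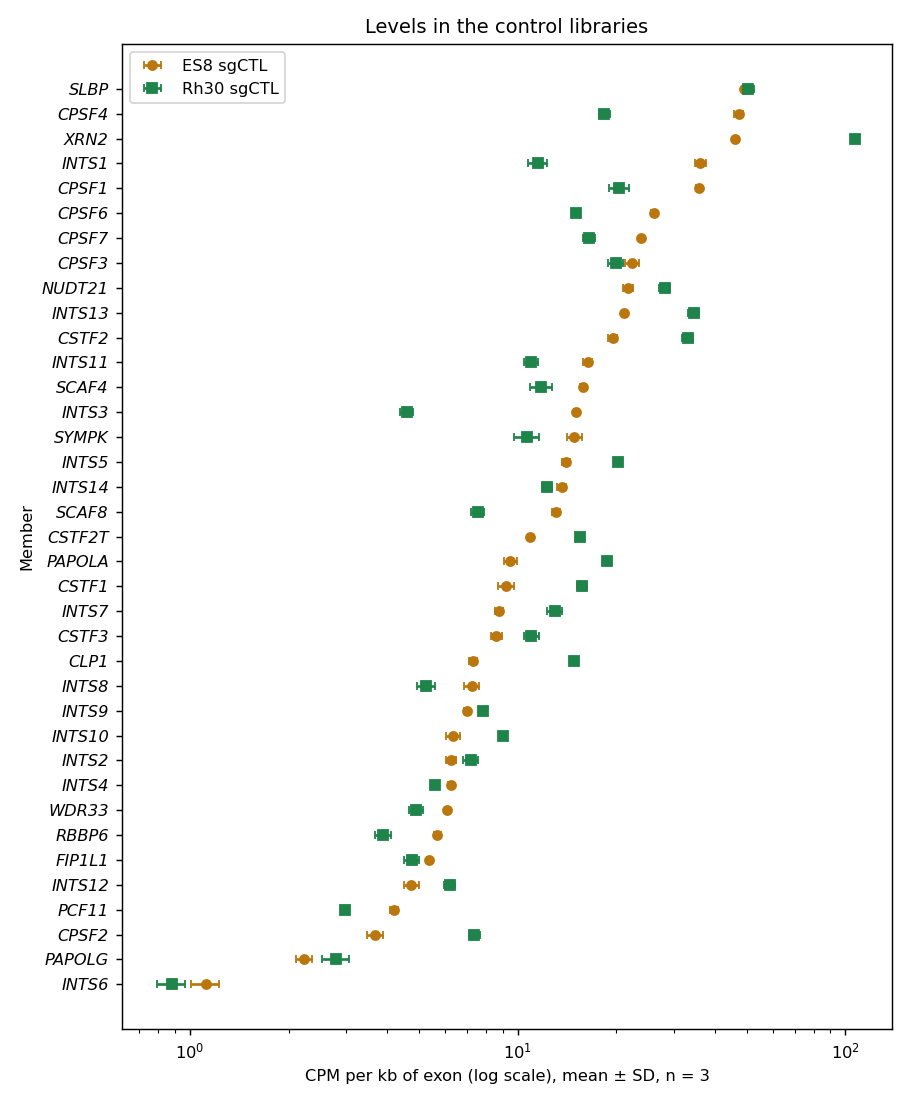
CPM per kb of exon (horizontal axis, log scale) of the 37 genes (vertical axis, in the order of ES8) in control libraries of ES8 (circles) and Rh30 (squares), as the mean ± SD of 3 libraries. *INTS6* is lowest in both lines, and the squares of *INTS3*, *INTS1* and *CPSF4* lie furthest to the left of their circles.

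A list of 61 other genes of 3' end formation, elongation and termination was also drawn up with earlier results of these data known. In the main fits, the only ones given for it, more of its genes rose than fell after knockdown. In ES8, 20 rose and 2 fell, beside the 13.6% and 13.8% of all genes, and in Rh30 22 rose and 6 fell, beside 16.1% and 16.2%. Their median log2 fold change was 0.06 in each line. That of all genes was -0.02 in ES8 and 0.0045 in Rh30, or -0.06 in both with library size scaling. In both lines 12 rose and 2 fell, beside 6.17% and 6.18% of genes tested in both, and *CTDP1*, a phosphatase of the polymerase tail, rose in ES8 and fell in Rh30. *CDKN2AIP*, whose protein binds the tumour suppressor ARF and XRN2, had the smallest p of the list in both lines (1.18 ± 0.08 SE in ES8, adjusted p = 5.4e-05, and 0.79 in Rh30, adjusted p = 4.0e-05). *ZNF473*, a factor of histone pre-mRNA processing, rose by 0.72 in ES8 and 0.39 in Rh30, and *NCBP2*, the small cap-binding subunit, by 0.47 and 0.48. Of the phosphatase and polymerase-tail list (12 genes), 7 rose in each line, beside the shares of all genes above, among them *TOX4* (0.43 and 0.23), *WDR82* (0.39 and 0.20) and *SSU72* (0.26 and 0.21). *PPP1R10*, the scaffold that holds *TOX4* and *WDR82*, rose in ES8 (0.68 ± 0.06 SE, adjusted p = 0.00014), and *PPP1CC*, a catalytic subunit, had the third smallest p in Rh30 (0.39, adjusted p = 0.00052).

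Also higher in both lines were *SUPT4H1* of the elongation factor DSIF (0.58 and 0.36), *SNRPC* of the U1 particle (0.41 and 0.42), *RPRD1A*, which binds the polymerase tail (0.39 and 0.39), *INTS15*, a further Integrator subunit (0.34 and 0.27), *PPP2CA*, the phosphatase subunit bound by Integrator (0.27 and 0.24), and *NKRF*, a partner of XRN2 (0.34 and 0.23). *CTR9* (-0.35 and -0.24) and *PAF1* (-0.21 and -0.17), subunits of the PAF elongation complex, fell in both lines.

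Readouts of 3' end formation were counted in the same fits and are set beside the 13.6% of all genes that rose and 13.8% that fell in ES8 and the 16.1% and 16.2% in Rh30. Of 61 replication-dependent histone genes, 36 could be tested in ES8 and 23 in Rh30, with 3 higher and 2 lower in ES8 and 3 higher and 0 lower in Rh30 after knockdown, which is near or under those shares. Poly(A) selection does not retain histone mRNAs that end at the stem-loop, so these counts do not measure histone mRNA as a whole. Of 122 annotated read-through genes, named for 2 neighbouring genes, 11 of 45 tested rose in ES8 and 10 of 45 in Rh30, and 1 fell in each. Of 898 small nucleolar and Cajal body RNAs, 17 of 42 tested rose in ES8 and 15 of 29 in Rh30, and none fell. Only part of each of these 3 classes passed the filter, which a gene can pass through the group where it is high, so these counts are no support for a rise of a class. Of 15 S phase genes, all tested, 1 rose and 7 fell in ES8 and 2 rose and 3 fell in Rh30.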

How the data were processed

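RNA was measured in 18 poly(A)-selected libraries, 3 per group. The authors deposited 1 table of raw read counts per gene for each library, without normalization. The submitters' processing notes name Trimmomatic 0.36, STAR 2.5.2b, featureCounts of Subread 1.5.2 and GRCh38, the study's methods name an older build, and 85.3% of 19039 protein-coding starts lay within 1 kb of their GRCh38 position. The strand setting of the counting is not given in the sources used here. Symbols were matched for 55082 of 57500 identifiers. Exon numbers and GC content came from GENCODE v44lift37, without its coordinates.

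Counts were tested per comparison over its 6 libraries with edgeR 4.0.16 in R 4.3.3 (TMM, filterByExpr, quasi-likelihood F test, Benjamini-Hochberg), and the interaction over 12 libraries. The study's methods name DESeq2, used here as an alternative (1.42.0). SE is the log2 fold change divided by the square root of F. The fits were tested on simulated data.

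Members and lists were chosen with earlier results of these data known. Members were named with values if they passed in the same direction in both lines, had 1 of the 3 smallest p-values of a comparison, changed at least 1.5-fold in a knockdown or ΔRRM comparison, or were *SLBP*, *CSTF2*, *CSTF2T*, *CPSF3* or *INTS11*. From the other lists, the 3 smallest p-values per line and genes that passed in both lines could be named. Members outside this rule that passed in 1 line or the interaction (*CPSF2*, *INTS5*, *INTS7*, *INTS8* and *SCAF8*), and *CTDP1*, were named after their values were seen.

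Alternatives were DESeq2, its size factors, no filter, a minimum of 10 counts per library, 1 fit over all libraries, a fold change of at least 2, a replicate block, a GC content and length correction (lowess, span 0.3) with and without the block, leaving out each library, and, added after seeing the data, library size scaling. Same-letter libraries varied together over genes with a mean count of at least 100 in the Rh30 knockdown (correlations 0.58, 0.29 and 0.35 for letters A, B and C), and in every other comparison at least 1 letter was under 0.1. Replicate libraries differed by more than sampling noise. By a chi-square per gene, ES8 sgDNAJC17 library A stood apart from B and C (27.5 and 31.5, and 2.63 between B and C). So did library A of Rh30 sgDNAJC17 (16 and 28.7, and 7.16 between B and C) and library A of Rh30 sgCTL (10.2 and 11.4, and 4.12). ES8 ΔRRM library B stood apart from A and C (31.8 and 20.5, and 9.08 between A and C). Of the columns of values, 0 were left unused.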

Additional observations from a re-analysis of the deposited data

Results flagged for a closer look

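The response to knockdown differed between the lines in 7 members by the interaction of line and guide, given as the log2 fold change in Rh30 minus that in ES8, with edgeR's quasi-likelihood test and Benjamini-Hochberg adjustment. The differences were 0.57 ± 0.12 SE for *INTS13* (adjusted p = 0.0045), 0.47 ± 0.12 SE for *CPSF2* (adjusted p = 0.019), 0.43 ± 0.10 SE for *INTS10* (adjusted p = 0.010), 0.36 ± 0.09 SE for *XRN2* (adjusted p = 0.012) and 0.36 ± 0.10 SE for *INTS7* (adjusted p = 0.024). They were -0.44 ± 0.12 SE for *INTS5* (adjusted p = 0.021) and -0.42 ± 0.12 SE for *INTS11* (adjusted p = 0.027). *DNAJC17* itself was at 0.68 ± 0.18 SE (adjusted p = 0.020) in the same test, with the deeper fall in ES8. *INTS13* passed in all 21 alternatives run, *XRN2* and *INTS10* in all but 1 (without Rh30 sgCTL library A), and *INTS11* did not pass with the correction for GC content and length.
*INTS11* was also lost without ES8 sgCTL library A or C or Rh30 sgDNAJC17 library C (-0.40, -0.40 and -0.34), and *CPSF2* without ES8 sgCTL library A or C, Rh30 sgCTL library A or B or Rh30 sgDNAJC17 library C, in 1 fit over all libraries and with library size scaling, with values over its alternatives of 0.36 to 0.54. *INTS5* was lost without ES8 sgCTL library B or C, Rh30 sgCTL library B or Rh30 sgDNAJC17 library B or C (-0.50 to -0.24 over its alternatives). *INTS7* was lost without ES8 sgCTL library A or C, Rh30 sgCTL library A or B or Rh30 sgDNAJC17 library B or C and without a filter (0.27 to 0.41 over its alternatives).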

How the results depend on the processing

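Of 111 log2 fold changes of named members that passed, 1707 values under the alternatives were computed, of which 1526 kept their direction and passed, 174 kept their direction and did not pass, and 7 changed direction. The 7 were all in Rh30 against another group. *CPSF4* in ΔRRM cells against controls was at -0.00911 with library size scaling. *XRN2* there was at -0.0185 with the GC content and length correction and at -0.0184 with that correction and the block. *INTS11* under the same settings was at 0.331 and 0.33 against controls, and at 0.0388 under both between the lines at baseline.

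With a fold change of at least 2 required, 0 members were called in any comparison within a line or in the interaction, and 2 were higher and 3 lower at baseline. The ES8 knockdown had 11 members higher with the GC content and length correction, with or without the block. The Rh30 knockdown had 3 higher without a filter, 2 in 1 fit over all libraries and 1 with library size scaling. With that scaling 9 members were higher in Rh30 ΔRRM cells than in controls and 8 than in knockdown cells. The interaction had 13 by DESeq2 and 13 with the GC content and length correction, and ES8 ΔRRM against knockdown had 11 higher with that correction. Over all genes, library size scaling moved the calls in the Rh30 knockdown from 2473 higher and 2501 lower to 1714 and 3207, in the ES8 knockdown from 2336 and 2365 to 1931 and 2978, in Rh30 ΔRRM against controls from 5216 and 5410 to 3585 and 7226, and against knockdown from 4505 and 4676 to 3220 and 6226. In the interaction it moved them from 989 and 859 to 640 and 1075. The medians of all genes moved by over 0.1 in Rh30 ΔRRM against controls (to -0.25) and against knockdown (to -0.17) and at baseline (from -0.07 to -0.28). The cause of these changes was not tested.

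The replicate block changed the Rh30 knockdown, where same-letter libraries varied together, to 13 members higher and 6 lower, and with the GC content and length correction to 13 and 9. The labels give only a replicate letter and do not say that it pairs libraries. In the other comparisons of 2 groups, at least 1 letter had a correlation under 0.1. There the block left 2 higher and 1 lower between ΔRRM and knockdown libraries of ES8, or 11 higher with the correction, while the interaction had 11 with the block and 19 with both.

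Leaving out 1 library gave 5 to 10 higher and 5 to 13 lower in the ES8 knockdown, 1 to 8 and 4 to 6 in the Rh30 knockdown, 0 in ES8 ΔRRM against controls, 14 to 15 and 15 to 17 in Rh30 ΔRRM against controls, 2 to 7 and 1 to 7 in ES8 ΔRRM against knockdown, 11 to 13 and 13 to 15 in Rh30 ΔRRM against knockdown, 16 to 17 and 19 at baseline, and 3 to 11 in the interaction. Counts moved by over 1.5 times without ES8 sgDNAJC17 A (10 higher in the ES8 knockdown, 11 in the interaction), ES8 sgCTL A or C (5 lower in the ES8 knockdown, 4 and 3 in the interaction), Rh30 sgCTL A, B or C (2, 1 and 2 higher in the Rh30 knockdown) and Rh30 sgDNAJC17 B or C (1 and 3 higher). The interaction also fell to 3 without Rh30 sgCTL A, 4 without B and 3 without Rh30 sgDNAJC17 C. Every member had at least 574 counts in every library (the lowest was *INTS6*).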
